A study of Mus musculus with 4 samples.

Results

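Tspan32 and 4 of its neighbours on distal mouse chromosome 7, namely Cd81, Tssc4, Phlda2 and Nap1l4, were followed across 4 single-cell libraries of blood stem and progenitor cells. These 5 genes, of 32285 in each matrix, were selected on their levels in these same libraries, after Tspan32 had been seen to be low in every mutant library. Their levels and ratios are therefore given as a description. The values show how far the low level of Tspan32 was shared by the genes around it.

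The study sorted CD45.2+ bone marrow cells that were lineage negative, Sca1+ and Kit+ (LSK cells, a fraction rich in blood stem cells and their first progeny) 10 weeks after transplantation. RNA and 6 surface proteins were counted per cell with droplet capture and barcoded antibodies. The libraries were 1 control, 1 with Mll3 deleted, 1 with Mll4 deleted and 1 with both Mll3 and Mll4 deleted. Mll3 and Mll4 are histone H3 lysine 4 methyltransferases of enhancers, made from the genes Kmt2c and Kmt2d. The strain, the way the alleles were deleted and the number of mice behind a library are not given in the sources used here. With 1 library per genotype the spread between animals is unknown, so no test was run and every interval covers counting error only, at the 95% level. All 3 mutant libraries are compared with the same control library.

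Tetraspanins are small membrane proteins that cross the membrane 4 times and gather receptors, integrins and signalling proteins into patches. Tspan32, also called Tssc6 or Phemx, is a tetraspanin of blood cells, known from lymphocytes and platelets. Cd81 is a broadly expressed tetraspanin that helps to carry partner proteins to the cell surface. The genes lie in a cluster of imprinted genes, in which the long noncoding RNA Kcnq1ot1, made from the paternal chromosome, silences genes such as Cdkn1c, Phlda2 and Slc22a18 on that chromosome. Phlda2 is a small protein with a pleckstrin homology domain that limits placental growth, Nap1l4 is a histone chaperone of the nucleosome assembly protein family, and Tssc4 is a protein of spliceosomal particle assembly.

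On GRCm38, the build called mm10 in the submitters' processing notes, Tspan32 (ENSMUSG00000000244) spans 143005046 to 143019644 on the plus strand of chromosome 7. Cd81 (ENSMUSG00000037706) follows on the same strand at 143052739 to 143067934, after a gap of 33.1 kb. Tssc4 (ENSMUSG00000045752, 143069249 to 143071093, plus strand) starts 1.31 kb after the end of Cd81. Phlda2 (ENSMUSG00000010760, 143501545 to 143503150) and Nap1l4 (ENSMUSG00000059119, 143513579 to 143549106) lie on the minus strand, with starts 496.5 kb and 508.5 kb beyond the start of Tspan32. The strand setting of the counting is not given in the sources used here. Tspan32os overlaps Tspan32 by 2988 bases on the other strand, and Trpm5 covers all 1845 bases of Tssc4 on the other strand, so their reads may not be told apart.

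The 250 bases before the RefSeq start of each gene (GRCm38.p6) are printed to show how the promoter of Tspan32 differs in letters from those of its neighbours. RefSeq promoters were matched for 4 of the 5 genes, and Nap1l4 is named only. Each line reads 5′ to 3′ on the strand of its gene. Capitals mark matches, on either strand, to 5 short motifs whose letters are spelled out after the lines.
Tspan32: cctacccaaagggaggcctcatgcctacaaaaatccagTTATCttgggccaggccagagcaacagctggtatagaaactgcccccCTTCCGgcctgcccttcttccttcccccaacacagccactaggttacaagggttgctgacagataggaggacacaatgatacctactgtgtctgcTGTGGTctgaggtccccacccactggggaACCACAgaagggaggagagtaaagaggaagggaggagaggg
Cd81: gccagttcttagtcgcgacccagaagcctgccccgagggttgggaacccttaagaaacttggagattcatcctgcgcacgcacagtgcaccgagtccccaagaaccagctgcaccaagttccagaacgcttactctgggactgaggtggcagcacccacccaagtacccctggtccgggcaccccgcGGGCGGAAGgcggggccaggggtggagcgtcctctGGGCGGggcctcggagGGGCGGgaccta
Tssc4: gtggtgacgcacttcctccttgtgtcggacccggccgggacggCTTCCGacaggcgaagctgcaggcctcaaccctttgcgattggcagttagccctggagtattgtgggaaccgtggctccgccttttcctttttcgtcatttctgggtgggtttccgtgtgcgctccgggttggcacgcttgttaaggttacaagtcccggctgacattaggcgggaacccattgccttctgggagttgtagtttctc
Phlda2: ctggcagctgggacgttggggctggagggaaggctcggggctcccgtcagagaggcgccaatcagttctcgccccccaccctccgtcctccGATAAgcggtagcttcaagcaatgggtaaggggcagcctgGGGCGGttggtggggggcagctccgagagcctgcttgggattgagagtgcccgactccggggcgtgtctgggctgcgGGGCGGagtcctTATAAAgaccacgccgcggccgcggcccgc

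The Tspan32 window (chr7:143004796-143005045) held 1 CpG, and 7.87% of the 32851 windows of this length held fewer. The windows of Cd81 (chr7:143052500-143052749), Tssc4 (chr7:143069118-143069367) and Phlda2 (chr7:143502525-143502774) held 16, 17 and 21 CpGs, against a median of 6 over all windows. The RefSeq starts of these genes differ from the gene spans given above. The Cd81 and Tssc4 windows run into those spans, and the Phlda2 window lies wholly within its span. The Runx core TGTGGT, bound by a family of factors that includes Runx1 of blood stem cells, occurred at 2 places in the Tspan32 window and was not in the other windows printed. That motif was in 14.0% of all windows. The GATA motif, read as GATAA and held by 22.6% of all windows, occurred in the Tspan32 and Phlda2 windows. The ETS motif, read as CGGAAG and held by 13.6% of windows, occurred in those of Tspan32, Cd81 and Tssc4. The GC box, read as GGGCGG and held by 32.7% of windows, numbered 3 in the Cd81 window, where 1 of them overlaps the ETS match, and 2 in the Phlda2 window. The Phlda2 window also held the TATA box, read as TATAAA and held by 12.4% of windows. A match describes the letters only.

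Between 4748 and 7274 barcodes per library met the filter of 1000 or more genes and no more than 10% mitochondrial UMIs (unique molecular identifiers, each a counted RNA molecule). Their totals ran from 50792614 UMIs in the Mll3/4-labelled library to 120700343 in the Mll4-labelled one, and the medians from 8920 to 21400 UMIs per cell. Any pair of libraries shared 7 to 14 barcode sequences. The LSK markers Kit and Ly6a (Sca1) were present in all 4 libraries, at 215 to 362 and 93.4 to 255 CPM (UMIs of the gene per 1000000 UMIs of the cells summed). Kmt2c was at 68.9 CPM in the control, 35.3 in the Mll3-labelled library and 42.3 in the Mll3/4-labelled library. Kmt2d was at 24.6 in the control, 22.6 in the Mll4-labelled library and 25.4 in the Mll3/4-labelled library, so it was not clearly lower in either library labelled as lacking Mll4. The libraries are called by their labels for that reason. A pair of libraries stood apart in cell makeup. In the Mll3/4-labelled library 99.4% of cells had at least 0.2% of their UMIs in a list of 12 B-lineage genes, against 0.234% in the control, and in the Mll4-labelled library 32.2% were high in this way for granulocyte-monocyte genes, against 3.29%.

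Tspan32 was the lowest, relative to control, of the 4 members that passed a minimum mean of 20 CPM, in each mutant library. The control library held it at 166 CPM, with a counting interval of 164 to 169. The level was 43.7 (42.4 to 44.9) in the Mll3-labelled library, 15.8 (15.1 to 16.5) in the Mll4-labelled library and 36.5 (34.9 to 38.2) in the Mll3/4-labelled library. Every mutant library was thus far below the control, and the Mll4-labelled library was the lowest. The log2 ratios to control were -1.93 (-1.98 to -1.88), -3.40 (-3.47 to -3.33) and -2.19 (-2.26 to -2.12), which are levels 3.81-fold, 10.5-fold and 4.55-fold lower. Ratios here are of CPM after 0.5 UMIs were added to each sum. Among the 6125 genes that passed this minimum, these values ranked 4 from the lowest in the Mll3-labelled library, 2 in the Mll4-labelled library and 259 in the Mll3/4-labelled library.

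The background of these ratios differed between libraries. At least 2-fold lower were 0.457% of those genes in the Mll3-labelled library, 3.28% in the Mll4-labelled library and 10.5% in the Mll3/4-labelled library. Higher by the same factor were 1.09%, 4.98% and 6.07%. The median log2 ratio of all these genes was 0.10, -0.13 and -0.11 in that order. Genes at least 2-fold lower in all 3 mutant libraries made up 0.0327% of those that passed the minimum. They are 2 genes, Tspan32 and Otos. Genes with a lower mean are not in this count. Some with a start within 5 Mb of that of Tspan32 were also at least 2-fold lower in all 3. Among them were Phlda2 and E230032D23Rik, described further on, and Syce1 and Zfp941. The last 2 were named only after their values were seen. Their log2 ratios were -2.06, -2.00 and -5.48 for Syce1 and -1.08, -2.59 and -3.22 for Zfp941. The share of all genes under the minimum that were this low in all 3 was not counted. Whether such genes are more frequent here than elsewhere was not tested. Otos, on chromosome 1 and named only after its values were seen, had log2 ratios of -1.10, -2.03 and -4.87. Since all ratios share the control library, a high control value lowers all 3 together.

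The mutant levels of Tspan32 also differed among themselves by more than counting error. The Mll4-labelled library was below the Mll3-labelled one by a log2 ratio of -1.47 (-1.55 to -1.39). The Mll3/4-labelled library was above the Mll4-labelled one by 1.21 (1.12 to 1.30) and close to the Mll3-labelled one, with a ratio of -0.26 (-0.34 to -0.18). In falling order the levels were control, Mll3-labelled, Mll3/4-labelled and Mll4-labelled. No spread over animals is known for any step of that order.

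Fewer cells showed Tspan32 at all. At least 1 UMI was found in 88.6% of control cells (exact binomial interval 87.8 to 89.3), 47.3% of Mll3-labelled cells (46.1 to 48.6), 21.6% of Mll4-labelled cells (20.4 to 22.7) and 26.5% of Mll3/4-labelled cells (25.3 to 27.8). After each cell was thinned to 3000 UMIs, which left out 14, 17, 134 and 33 cells, the shares were 39.9%, 13.5%, 3.95% and 10.0%. The order over libraries matched that of the levels before and after thinning. The share that free RNA gives was not measured. The lowest share in a range of marker-high cells, described further on, was 62.0% in the control (dendritic-high), 5.81% in the Mll3-labelled library (T-and-innate-lymphoid-high), 1.29% in the Mll4-labelled library (macrophage-monocyte-high) and 16.0% in the Mll3/4-labelled library (HSC-high). The median depths of these cells were 10712.5, 13040.0, 9613 and 5063.5 UMIs, against 8920 to 21400 in the whole libraries. A Poisson distribution, with UMIs spread evenly over cells, puts the thinned shares at 41.1%, 13.8%, 4.24% and 10.8%. At thinned means of 0.529, 0.148, 0.0434 and 0.114 UMIs per cell, a share near these says little about how even the spread is. The variance over the mean of the thinned counts was 1.07, 1.04, 1.14 and 1.15. Levels that differ between kinds of cell are given further on.

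**Figure D1:**
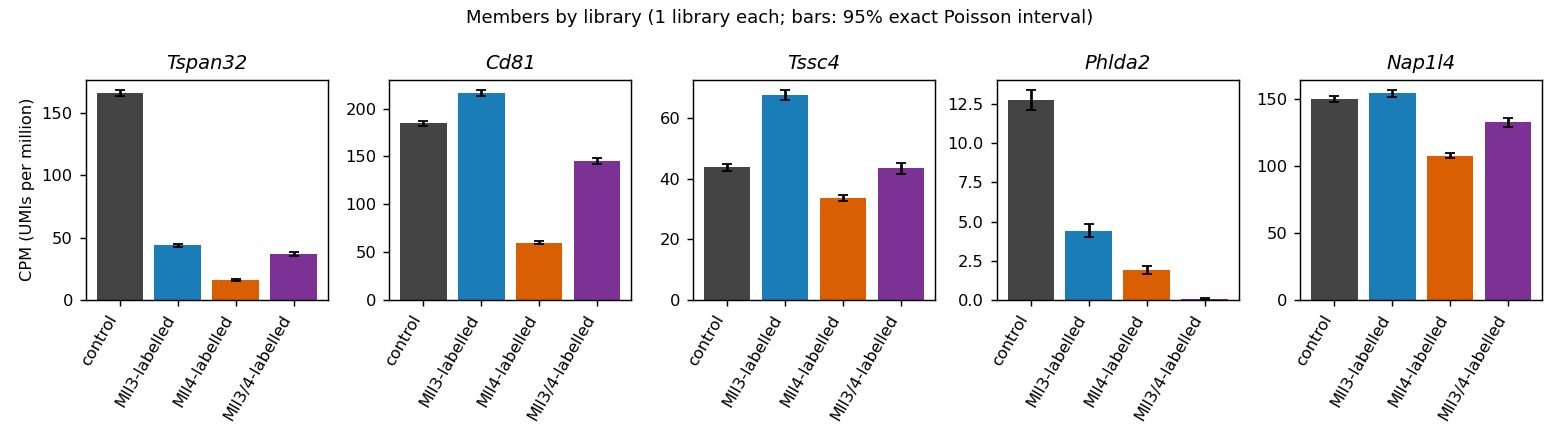
Level of each of the 5 genes in CPM (vertical axis, from 0, a separate scale per gene) in the 4 libraries, 1 bar per library with its exact Poisson interval. Tspan32 is below its control bar in all 3 mutant libraries, as is Phlda2, whereas Cd81, Tssc4 and Nap1l4 each have a mutant bar near or above the control.

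The level of Tspan32 was then taken within kinds of LSK cell. Cells were split with the antibody counts into gates called HSC (haematopoietic stem cell) and MPP1 to MPP4 (multipotent progenitors). CD135+CD150- cells formed the MPP4 gate. The CD135- cells were divided by CD150 and CD48, with CD150 alone for HSC, neither for MPP1, both for MPP2 and CD48 alone for MPP3. The 5 gates leave out CD150+CD135+ cells, which made up 0.701%, 1.77% and 0.334% of the control, Mll3-labelled and Mll4-labelled cells. They were 38.1% (1810 cells) of the Mll3/4-labelled library, its largest group, and Tspan32 was at 34.3 CPM (31.7 to 37.1) in them, against 184 (153 to 220.0) in the 51 such cells of the control. Group sizes depended on how the antibody counts were scaled. With counts not centred per cell, this group held 57 Mll3/4-labelled cells (1.20%) and 1099 Mll3-labelled cells (18.0%). The HSC and MPP2 gates of the Mll3/4-labelled library then kept 5 and 8 cells, against 554 and 174 with centring. In the control, Tspan32 was at 183, 192, 189, 155 and 136 CPM in the 5 gates, from HSC to MPP4. It was thus present in all 5 and highest in the HSC, MPP1 and MPP2 gates. In the Mll3-labelled library it was at 54.3, 44.8, 46.4, 28.1 and 21.9, which kept the lowest values in MPP3 and MPP4. In the Mll4-labelled library the levels were 39.1, 27.0, 44.9, 10.4 and 11.3, again lowest in MPP3 and MPP4. In the Mll3/4-labelled library they were 37.5, 29.8, 56.0, 38.8 and 37.1, without that drop. Every mutant value was below every control value.

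Within gates, Tspan32 was at least 2-fold lower in all 15 comparisons of a mutant library with the control. The share of genes that low in the same gates was 0.645%, 0.697%, 0.647%, 0.381% and 0.879% for the Mll3-labelled library. It was 1.77%, 2.63%, 1.08%, 4.47% and 6.58% for the Mll4-labelled library. It was 10.8%, 11.9%, 9.89%, 10.2% and 11.2% for the Mll3/4-labelled library. The log2 ratios of Tspan32 were -1.75, -2.10, -2.02, -2.47 and -2.64 in the Mll3-labelled library, from the HSC gate to the MPP4 gate. They were -2.23, -2.83, -2.07, -3.90 and -3.58 in the Mll4-labelled library. They were -2.28, -2.68, -1.75, -2.00 and -1.88 in the Mll3/4-labelled library, where the HSC and MPP1 gates were relatively lower than the CD48+ and CD135+ gates. The gates are themselves read from surface proteins that the genotypes may change, which was not tested.

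**Figure D2:**
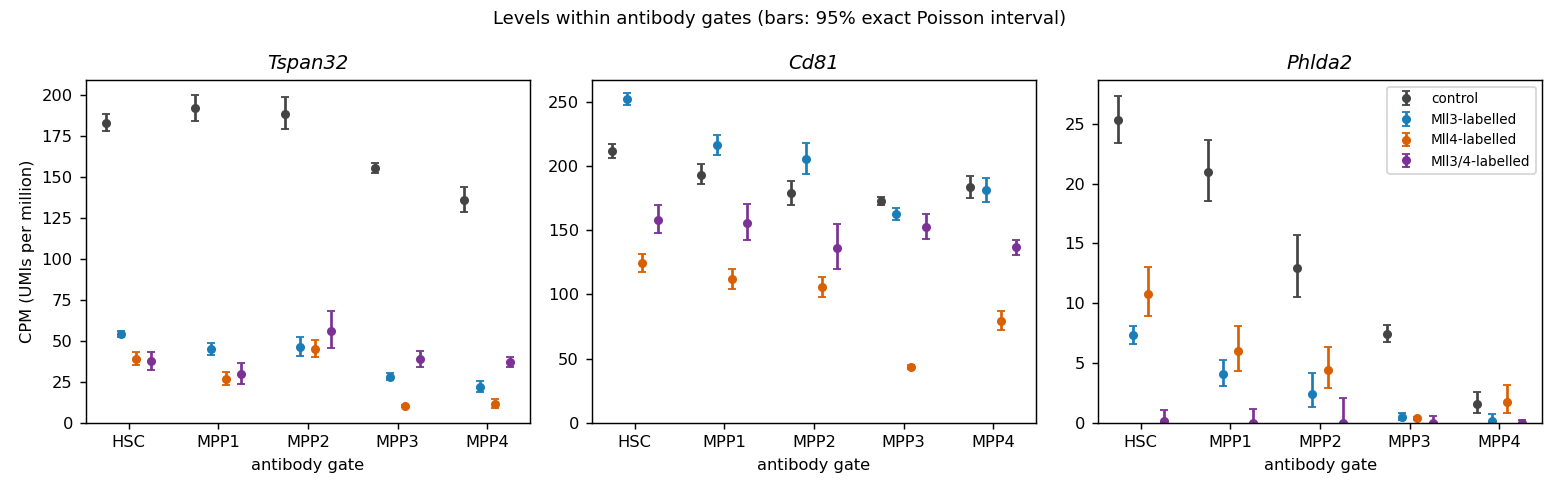
CPM (vertical axis, from 0) of Tspan32, Cd81 and Phlda2 in 5 antibody gates (horizontal axis), 1 point per library with its exact Poisson interval. All mutant points of Tspan32 lie between 10.4 and 56.0, under the control points of 136 to 192, and the Mll4-labelled Cd81 point is lowest in the MPP3 gate.

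Marker genes gave a second split. A cell was called high for a list when its genes made up at least 0.2% of the UMIs of that cell, which is a range and not a cell type, and a cell may be high for several lists. In the control, Tspan32 was at 176 CPM in HSC-high cells, 184 in erythroid-high cells, 115 in granulocyte-monocyte-high cells and 110 in dendritic-high cells. Cells high for no list had 170 CPM. The gene was thus counted in each of these ranges of the control. The dendritic value depends on where the range starts: it was 151 CPM with at least 0.1% of UMIs in the list and 63.1 (48.3 to 81.0) with at least 0.5%.

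In the Mll3-labelled library Tspan32 was at 70.2 CPM in HSC-high, 61.3 in erythroid-high, 22.1 in granulocyte-monocyte-high and 36.3 in dendritic-high cells. The dendritic value was 42.6 from 0.1% of UMIs and 14.8 (27 UMIs in 138 cells) from 0.5%. The granulocyte-monocyte value was 39.1 from 0.1% and 17.3 from 0.5%. The lowest levels there were 6.59 (4.41 to 9.47) in the 177 B-lineage-high cells and 5.95 (2.39 to 12.2) in the 86 T-and-innate-lymphoid-high cells. From 0.1% of UMIs these were 6.48 and 9.08. In the Mll4-labelled library it was at 32.0 in HSC-high cells and at 35.1 in cells high for no list. It was at 3.51 (3.02 to 4.04) in the 1543 granulocyte-monocyte-high cells of that library, 2.16 in macrophage-monocyte-high cells and 4.66 in mast-basophil-high cells. With at least 0.5% of UMIs in the list, the last 2 were 0.92 (8 UMIs in 786 cells) and 3.12 (18 UMIs in 694 cells), and the granulocyte-monocyte value was 2.62. The Mll4-labelled library thus joined cells with a level near those of the other mutants to many myeloid-high cells with much lower levels. Among cells high for no list, the Mll4-labelled library had a log2 ratio of -2.28 to control and the Mll3-labelled library -1.88. In granulocyte-monocyte-high cells the values were -5.04 and -2.38 in that order. They were -4.48 and -1.89 from 0.1% of UMIs, and -5.29 and -2.56 from 0.5%.

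Almost the whole Mll3/4-labelled library was B-lineage-high (4721 of 4748 cells), and Tspan32 stood at 36.1 CPM (34.4 to 37.8) in those cells. The summed level of the 12 B-lineage genes was 63.4 CPM in the control, 355 in the Mll3-labelled library, 69.5 in the Mll4-labelled library and 13306 in the Mll3/4-labelled library. Of these genes 11 were at least 2-fold higher in the Mll3-labelled library, 1 in the Mll4-labelled library and 11 in the Mll3/4-labelled library, and none was at 0 UMIs in any library. Without the B-lineage-high cells, the log2 ratio of Tspan32 in the Mll3-labelled library was -1.88. The Mll3/4-labelled library keeps 27 cells without them, so B-lineage RNA and the genotype cannot be told apart there.

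The 7 granulocyte-monocyte genes summed to 1033, 1309, 10604 and 43.5 CPM over the libraries, from the control to the Mll3/4-labelled one as before. All 7 were at least 2-fold higher in the Mll4-labelled library and all 7 at least 2-fold lower in the Mll3/4-labelled library, with none at 0 UMIs. The 8 megakaryocyte genes, of the platelet lineage in which Tspan32 is known, summed to 130, 77.6, 92.2 and 1.30 CPM. Gp6 was at 0 UMIs in the control, Mll3-labelled and Mll4-labelled libraries. Megakaryocyte-high cells numbered 35, 19, 26 and 0, and leaving them out is among the alternatives given at the close. When the gates were weighted to their shares in the control library, the log2 ratio of Tspan32 was -2.93 in the Mll4-labelled library. The weights match gate shares only and not the marker-high cells within a gate. The part of cell makeup in that ratio was not tested.

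The level of Tspan32 also differed between cells of unlike depth. Each library was divided into 3 equal parts by UMIs per cell. From the shallowest part to the deepest, the control level was 201, 175 and 148 CPM. The Mll3-labelled library had 55.0, 48.0 and 37.0, and the Mll3/4-labelled library 41.4, 39.1 and 33.8. The Mll4-labelled library had 10.3, 28.0 and 11.0, so it did not fall with depth as the others did. In each part the 3 mutant libraries were below the control, although the same part differs in depth between libraries.

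Cd81, the tetraspanin next to Tspan32, was lower in the Mll4-labelled library and much less changed in the others. Its level was 185 CPM in the control, 217 in the Mll3-labelled library, 59.8 in the Mll4-labelled library and 145 in the Mll3/4-labelled library. Relative to control, the log2 values were 0.23 (0.20 to 0.26), -1.63 (-1.67 to -1.59) and -0.35 (-0.39 to -0.31). Cells with a UMI made up 90.4%, 91.6%, 44.7% and 67.9%, and after thinning 41.7%, 47.1%, 14.8% and 34.0%. Of the 6125 genes, Cd81 in the Mll4-labelled library ranked 36 from the lowest.

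The Mll4-labelled ratio of Cd81 differed by gate. From HSC to MPP4 it was -0.77, -0.79, -0.76, -1.99 and -1.21, so only the last 2 gates passed 2-fold. In that library Cd81 was at 15.1 CPM in granulocyte-monocyte-high cells, 115 in HSC-high cells and 111 in cells high for no list. In the control it was at 139 in granulocyte-monocyte-high cells, so the gap between these ranges of cells was wider in the Mll4-labelled library. The part of the myeloid-high cells in the Cd81 difference was not tested beyond these values. In the Mll3/4-labelled library Cd81 stayed within 2-fold of control in every gate, from -0.43 to -0.18, while Tspan32 in the same cells was from -2.68 to -1.75.

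Tssc4, which starts just after Cd81, was within 2-fold of control in every library. It was counted at 43.9 CPM in the control, 67.8 in the Mll3-labelled library, 33.7 in the Mll4-labelled library and 43.5 in the Mll3/4-labelled library. As log2 ratios these were 0.63 (0.58 to 0.68), -0.38 (-0.44 to -0.32) and -0.01 (-0.09 to 0.06). The Mll3-labelled library was thus the highest for Tssc4, and 97.7% of the 6125 genes had a lower ratio there. Across the gates that ratio was 0.73, 0.77, 0.53, 0.51 and 0.67, above control in each. The gates are parts of the same pair of libraries and not replicates. The share of cells with a UMI was 46.7%, 60.1%, 44.3% and 32.9%, and after thinning 11.8%, 17.1%, 7.60% and 11.3%. The sign in the Mll3/4-labelled library depended on the setting, from -0.07 to 0.09.

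Phlda2, the imprinted inhibitor of growth, was lower in all 3 mutant libraries but from a low start, under the minimum of 20 CPM, so it is in none of the counts above. Its UMIs numbered 1521 in the control, 468 in the Mll3-labelled library, 229 in the Mll4-labelled library and 1 in the Mll3/4-labelled library. These are 12.7, 4.42, 1.90 and 0.02 CPM. The log2 ratios were -1.53 (-1.68 to -1.38) in the Mll3-labelled and -2.75 (-2.95 to -2.55) in the Mll4-labelled library. In the Mll3/4-labelled library the level was 432-fold lower, with a counting interval of 116-fold to 25588-fold that rests on 1 UMI. Cells with a UMI made up 15.5% (14.6 to 16.3), 6.46% (5.85 to 7.10) and 3.67% (3.16 to 4.24) of the first 3 libraries and 0.0211% (0.000533 to 0.117) of the Mll3/4-labelled one.

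Phlda2 was concentrated in the stem cell gates. In the control it was at 25.3 CPM in the HSC gate, 21.0 in MPP1, 12.9 in MPP2, 7.45 in MPP3 and 1.54 in MPP4. The Mll3-labelled library had 7.31, 4.05, 2.45, 0.48 and 0.13, and the Mll4-labelled library 10.8, 6.04, 4.39, 0.38 and 1.71. Both thus fell from the HSC gate to the MPP3 gate as the control did. The Mll3/4-labelled library had 1 UMI in the HSC gate and 0 in the other gates, where the exact upper limits were 1.19, 2.09, 0.60 and 0.23 CPM from MPP1 to MPP4. In the MPP4 gate the Mll4-labelled value (10 UMIs) and the control value (14 UMIs) did not differ beyond counting error, with a log2 ratio of 0.17 (-1.18 to 1.43).

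The level of Phlda2 differed much by gate, and its ratio differed with the weight given to each gate. The part of cell makeup in its ratio was not tested. With gates weighted to their shares in the control, the log2 ratio was -2.25 in the Mll3-labelled library and -1.73 in the Mll4-labelled library, which reverses their order. In the HSC gate alone the values were -1.79 (-1.98 to -1.61) and -1.22 (-1.53 to -0.94).

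Nap1l4, the histone chaperone gene beside Phlda2, was within 2-fold of control in every library. It was at 150.2 CPM in the control, 154 in the Mll3-labelled library, 108 in the Mll4-labelled library and 133 in the Mll3/4-labelled library. Set against control on the log2 scale these were 0.04 (0.01 to 0.07), -0.48 (-0.51 to -0.45) and -0.18 (-0.22 to -0.14). Within gates they ran from -0.11 to 0.17, from -0.66 to -0.11 and from -0.26 to -0.04 in that order. The share of cells with a UMI was 85.2%, 87.7%, 74.4% and 66.6%. Phlda2 and Nap1l4 lie 10.4 kb apart on the same strand, and in each mutant library the ratio of Phlda2 was below that of Nap1l4.

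The neighbourhood was then described as a whole. Within 1 Mb of the Tspan32 start there were 64 annotated genes, of which 21 had no UMI and 9 passed the minimum of 20 CPM. The 9 were Mob2, Ctsd, Lsp1, Mrpl23, Tspan32, Cd81, Tssc4, Kcnq1ot1 and Nap1l4. In the Mll3-labelled library 1 of the 9 was at least 2-fold lower (Tspan32), in the Mll4-labelled library 2 (Tspan32 and Cd81) and in the Mll3/4-labelled library 3 (Tspan32, Lsp1 and Ctsd). The shares of all genes that low were 0.457%, 3.28% and 10.5%, and Tspan32 is in each count because it was selected for being low. None of the 9 was at least 2-fold higher in any of the 3 libraries. The median of the 9 was 0.10, -0.38 and -0.47. Without Tspan32 the median of the other 8 was 0.10, -0.38 and -0.41, with 0, 1 and 2 genes at least 2-fold lower.

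The closest genes were mostly thinly counted. Of the 7 genes with a start within 0.1 Mb, 3 passed the minimum, and of these 3 Tspan32 alone was at least 2-fold lower in the libraries labelled Mll3 and Mll3/4. The other 4 were Ascl2, Tspan32os, R74862 and Trpm5, with 21, 43, 200 and 2 UMIs in the control. R74862, whose model lies 2.14 kb past the end of Tspan32 on the other strand, had 265, 81 and 315 UMIs in the mutant libraries and log2 ratios of 0.58 (0.31 to 0.85), -1.32 (-1.71 to -0.94) and 1.89 (1.63 to 2.15). Its model also overlaps that of Cd81 by 948 bases on the other strand, so reads there may not be told apart. Ascl2, the gene of a transcription factor that starts 38.2 kb before Tspan32, had 25, 10 and 1 UMIs in the mutant libraries. Its log2 ratios were 0.42 (-0.47 to 1.33), -1.05 (-2.34 to 0.06) and -2.61 (-8.53 to -0.52), the last from 1 UMI. The antisense gene Tspan32os had 34, 21 and 12 UMIs, with ratios of -0.16 (-0.86 to 0.52), -1.03 (-1.88 to -0.27) and -0.57 (-1.67 to 0.34). These wide intervals limit what can be said of Ascl2 and Tspan32os.

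Kcnq1ot1, the long noncoding RNA of the imprinted domain, was abundant, with 60457 UMIs in the control. Its log2 ratios were 0.10, -0.33 and 0.37, all within 2-fold. Lsp1, a leukocyte actin-binding protein gene 544 kb before Tspan32, was at 0.05, 0.00 and -6.23. Ctsd, the gene of the lysosomal protease cathepsin D, was at 0.13, 0.55 and -1.40. The 2 genes before Tspan32 that were low in the Mll3/4-labelled library were thus not low in the other libraries, unlike Tspan32.

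**Figure D3:**
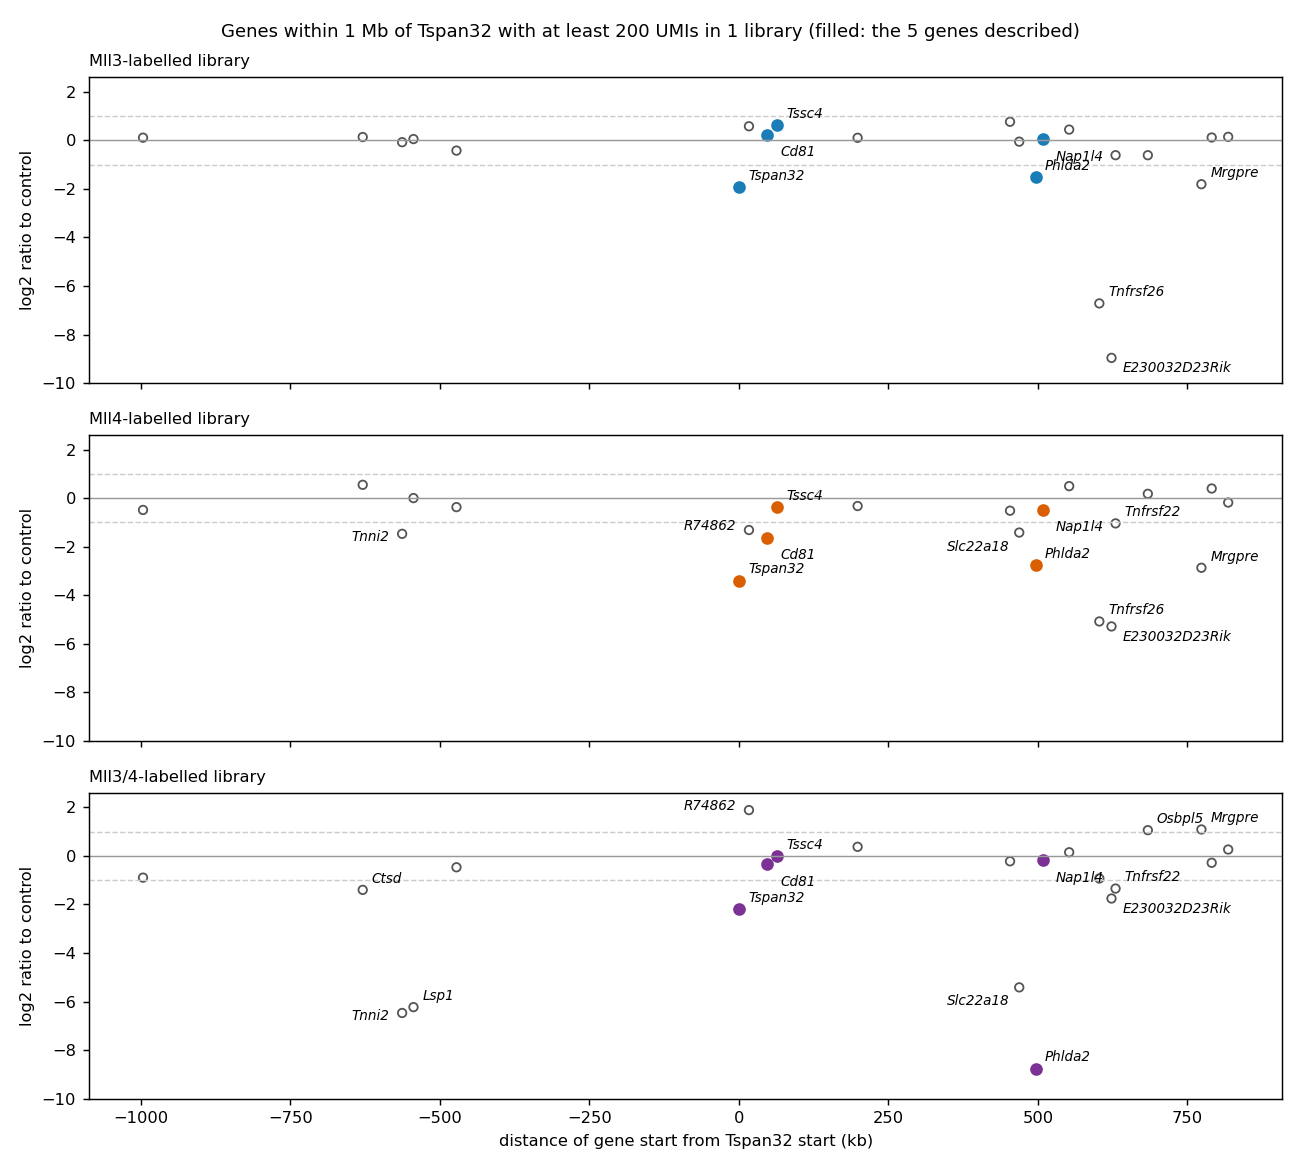
Log2 ratio to control (vertical axis) against the distance of each gene start from that of Tspan32 in kb (horizontal axis), 1 panel per mutant library, for genes with at least 200 UMIs in 1 library, with dashed lines at 2-fold. Tspan32 is low at distance 0 in all 3 panels, Cd81 is near 0 except in the Mll4-labelled panel, and Phlda2 in the lowest panel rests on 1 UMI.

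Among the thinly counted genes of the domain, some were much lower than Tspan32. Tnfrsf26, a tumour necrosis factor receptor family gene 603 kb beyond Tspan32, had 651 UMIs in the control and 5, 19 and 145 in the 3 mutant libraries in turn. Its log2 ratios were -6.72 (-8.48 to -5.62), -5.08 (-5.86 to -4.46) and -0.93 (-1.20 to -0.67). E230032D23Rik, which was singled out after its values were seen, had 2523 UMIs in the control and 4, 65 and 318 in the same libraries. Its ratios were -8.96 (-11.0 to -7.77), -5.28 (-5.67 to -4.94) and -1.75 (-1.93 to -1.59). Its model overlaps that of Tnfrsf26 by 699 bases and that of Tnfrsf22 by 14856 bases on the other strand, so their reads may not be told apart.

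Of 12355 genes with at least 100 UMIs in the control, 0.162% were at least 8-fold lower in the Mll3-labelled library, 0.186% in the Mll4-labelled library and 7.2% in the Mll3/4-labelled library. Tnfrsf26 and E230032D23Rik were both that low in the Mll3-labelled and the Mll4-labelled library, and not in the Mll3/4-labelled one. Tspan32 was that low in the Mll4-labelled library. Slc22a18, an imprinted transporter gene 469 kb beyond Tspan32, had 450, 384, 170 and 4 UMIs over the libraries from control to Mll3/4-labelled. Its log2 ratios were -0.06, -1.42 and -5.41 (-7.46 to -4.22). Cdkn1c, the imprinted cell cycle inhibitor p57, had ratios of 0.76, -0.52 and -0.22. Phlda2 and Slc22a18 were thus at least 2-fold below control in the libraries labelled Mll4 and Mll3/4. Cdkn1c, which shares their imprinted control region, was within 2-fold of control in both, at -0.52 and -0.22. The medians of the genes that passed the minimum were -0.13 and -0.11 there. In the Mll3-labelled library Phlda2 was lower, Slc22a18 near control and Cdkn1c higher.

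The list of 21 genes of the imprinted domain had 5 that passed the minimum, all named above. Of these, 1, 2 and 1 were at least 2-fold lower in the 3 mutant libraries in turn, against 0.457%, 3.28% and 10.5% of all genes, and none was higher by that factor. Tspan32 is in each of the lower counts because it was selected for being low. The only other gene in them is Cd81, in the Mll4-labelled library, so the counts do not describe the domain as a whole. The medians of the 5 were 0.10, -0.48 and -0.18. The lists were written with earlier results of these data known, and Tspan32 and Cd81 are in more than 1 of them.

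Tetraspanins as a family gave a second setting for Tspan32 and Cd81. Of 27 tetraspanin genes, 12 passed the minimum, and 2, 4 and 6 of them were at least 2-fold lower in the 3 mutant libraries in turn, against 0.457%, 3.28% and 10.5% of all genes. Higher by that factor were 0, 1 and 2, against 1.09%, 4.98% and 6.07%. The medians of the 12 were 0.15, -0.70 and -1.10, against 0.10, -0.13 and -0.11 over all genes. Tspan32 was the lowest of the 12 in the Mll3-labelled and Mll4-labelled libraries, while Tspan4 (-6.08), Cd63 (-5.34) and Cd53 (-4.10) were below it in the Mll3/4-labelled library. Cd53, a pan-leukocyte tetraspanin, was the other member at least 2-fold lower in the Mll3-labelled library (-1.14), and it was higher in the Mll4-labelled library (2.01). Cd37, a tetraspanin of B cells, was at -0.19, -0.76 and 1.35. Tspan32 is in each of the lower counts because it was selected for being low in every mutant library. That it was at least 2-fold lower in all 3, alone among these 12, is therefore a description.

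**Figure D4:**
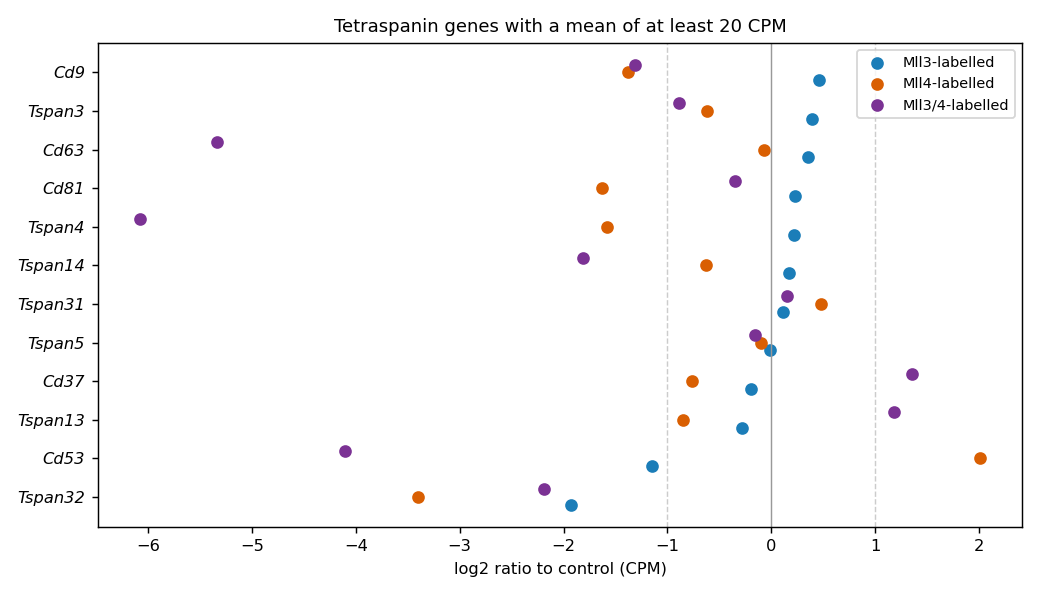
Log2 ratio to control (horizontal axis) of the 12 tetraspanin genes that passed the minimum (vertical axis), with 1 point per mutant library and dashed lines at 2-fold. Tspan32, in the lowest row, has all 3 points left of the dashed line at -1, whereas Cd81 has 1.

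Genes of proteins that work with Cd81 were counted too. Of 10 partners, 7 passed the minimum, with 0, 1 and 4 at least 2-fold lower and 1, 0 and 1 at least 2-fold higher. Of all genes 0.457%, 3.28% and 10.5% were that much lower and 1.09%, 4.98% and 6.07% that much higher. Ifitm1, an interferon-induced membrane protein gene, was at -0.60, -1.69 and -6.63. The nucleosome assembly family around Nap1l4 had 3 of 6 genes past the minimum, and none of the 3 (Nap1l1, Nap1l4 and Set) was past 2-fold in any library. Of the 3 Phlda genes none passed it. Phlda3 moved the other way from Phlda2 in the Mll3/4-labelled library, with 1813 UMIs against 521 in the control and a log2 ratio of 3.03.

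The pattern of Tspan32 over the 20 sums of a library and a gate, taken as log2 of CPM plus 1, was closest to those of Borcs7 (Pearson r = 0.932), Mrpl14 (0.892), Rpl12 (0.888), Ddx42 (0.869) and 2310033P09Rik (0.869), all on other chromosomes. With the other members r was 0.648 for Cd81, 0.638 for Phlda2, 0.634 for Nap1l4 and 0.186 for Tssc4. The 20 sums come from 4 libraries and share their depth and makeup, so these values are a description. The genes closest in pattern had much smaller changes than Tspan32. For Borcs7, a subunit of a lysosome-positioning complex, the log2 ratios were -0.47, -0.73 and -0.50.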

How the data were processed

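Single-cell RNA and 6 antibodies were counted in 4 libraries of mouse LSK cells, 1 per genotype. The deposited matrices hold raw UMI counts per cell barcode, not normalized. Per the submitters' processing notes they were made with Cell Ranger 6.1.1 on mm10, and the filter that chose the barcodes is not given in the sources used here. Gene positions are from GENCODE mouse release M21 on GRCm38, where 32158 of 32285 gene identifiers (99.6%) were found, and promoters are from RefSeq.

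From these counts, barcodes with 1000 or more genes and 10% or less mitochondrial UMIs were kept. Doublets were kept in the values reported, and an alternative leaves out the top 5% of UMIs. UMIs were summed per library, gate or marker-high range of cells and given per 1000000 UMIs of the same cells (CPM). Ratios to control add 0.5 UMIs to each sum. Intervals at the 95% level are exact: Poisson for sums, Clopper-Pearson for shares of cells and conditional binomial for ratios, and they cover counting error only. PCR copies are already joined in UMIs. Gates used the centred log ratio of the antibody counts and 1 threshold per antibody, from the crossing of a 2-component Gaussian mixture. Gate ratios need 100 cells in each library and marker-high ranges 50.

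The members, gene lists and markers were chosen with earlier results of these data known. Genes named besides the members and lists were those within 0.1 Mb of the Tspan32 start, those within 1 Mb at a mean of 20 CPM or more, and the 5 closest in pattern. Others are said to be chosen after their values were seen. The alternatives were other scalings (TMM from edgeR 4.0.16, median-of-ratios from DESeq2 1.42.0), cell filters, weights, minimums and windows. Leaving out megakaryocyte-high or B-lineage-high cells was added after seeing the data. The ratio and threshold code was tested on simulated data. Python 3.11.15, NumPy 2.4.6, SciPy 1.17.1, pandas 2.3.3, matplotlib 3.10.9 and R 4.3.3 were used. The values of 1 gene of the lists are not reported here.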

Additional observations from a re-analysis of the deposited data

Results flagged for a closer look

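Cd81 and Tssc4 changed sign between antibody gates of the same library, which is why they are listed here. In the Mll3-labelled library the log2 ratio of Cd81 to control was 0.25 (counting interval 0.21 to 0.30) in the HSC gate and -0.090 (-0.14 to -0.04) in the MPP3 gate. In the Mll4-labelled library the ratio of Tssc4 was 0.25 (0.10 to 0.40) in the HSC gate and -0.65 (-0.95 to -0.37) in the MPP4 gate. Each gate has 1 library on either side, so the difference between gates was not tested. Tspan32 had the same sign in all 5 gates of these libraries.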

How the results depend on the processing

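Tspan32 was below control under every alternative run, with log2 ratios of -2.15 to -1.88 in the Mll3-labelled library, -3.44 to -2.93 in the Mll4-labelled library and -2.27 to -2.08 for Mll3/4-labelled. Some values moved by more than the counting interval. TMM scaling gave -2.03 for Mll3-labelled and -2.11 for Mll3/4-labelled, median-of-ratios scaling -2.03 and -2.08, and totals without mitochondrial and ribosomal protein genes -2.01 for Mll3-labelled. In the Mll3-labelled library the median-of-ratios scaling moved the median of all genes from 0.10 to 0.00. Gates weighted to control shares gave -2.15 for Mll3-labelled and -2.93 for Mll4-labelled. The stricter cell filter gave -3.23, the top 5% of UMIs left out -3.32 and cells high in other lineage markers left out -3.18, all for Mll4-labelled, and the last -2.27 for Mll3/4-labelled. Leaving out B-lineage-high cells gave -1.88 for Mll3-labelled. It was not run for Mll3/4-labelled, where 27 cells remain. Nap1l4 in the Mll3-labelled library turned from 0.04 to -0.059 with TMM, -0.058 with median-of-ratios and -0.045 with totals without mitochondrial and ribosomal protein genes. The cause of these shifts was not tested. Genes within 1 Mb past 2-fold changed in number by construction with the minimum and the window. A minimum of 5 CPM gave 2, 3 and 4 lower genes in the 3 mutant libraries and 1 higher for Mll3/4-labelled, and a minimum of 100 gave 0, 1 and 1 lower. A window of 0.1 Mb gave 1 lower for Mll3/4-labelled. A window of 5 Mb gave 5 lower and 1 higher for Mll4-labelled and 10 lower and 1 higher for Mll3/4-labelled. Equal weight per cell gave 1 higher for Mll4-labelled. Gates drawn on antibody counts that were not centred gave a value in 12 of 15 gate comparisons, where each library kept 100 cells. Tspan32 was below control in all 12. Leaving out megakaryocyte-high cells, chosen like the B-lineage alternative after seeing the data, gave -1.93, -3.40 and -2.18. For marker-high cells, ranges starting at 0.1% or 0.5% of UMIs moved several Tspan32 levels by over 1.5 times, as given with them. No paired analysis was possible because each genotype has 1 library and no test was run. Depth limits Phlda2 in the Mll3/4-labelled library, where 1 UMI was counted, and the thinly counted genes of the domain.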
